A study of Mus musculus with 24 samples.

Results

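The genes described here encode the machinery that writes and reads methylation of lysine 9 of histone H3 (H3K9) in mouse embryonic stem cells (mESCs). The list has 10 genes, picked by symbol out of 24594 genes in the count table, and all 10 passed the filter on low counts. Setdb1, Suv39h1, Suv39h2, Ehmt1 and Ehmt2 encode H3K9 methyltransferases. Trim28 encodes the corepressor KAP1, Cbx1, Cbx3 and Cbx5 encode heterochromatin protein 1 (HP1) β, γ and α, and Adnp encodes a zinc-finger protein that works with HP1. Their mRNA was compared between wild-type (WT) cells and lines that lack a noncatalytic subunit of the ISWI chromatin remodeling complexes.

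RNA was sequenced from 24 libraries of mESCs of the 129S6/SvEvTac background without any treatment, 11 of them WT. The cells grew in serum with leukemia inhibitory factor on gelatin. The sample titles place the libraries in 5 sets, A to E, used as batches. Batch A held 2 WT, 2 Rsf1Δ and 2 Wstf (Baz1b) Δ libraries. Batch B held 2 WT and 2 Tip5 (Baz2a) Δ libraries, batch C 2 WT and 2 BptfΔ libraries, and batch E 2 WT and 2 Acf1 (Baz1a) Δ libraries. Batch D held 3 WT libraries and 3 libraries labelled Cecr2Δ. The deletions were made with CRISPR–Cas9, Acf1 was targeted in 2 rounds, and 1 clone stood for each genotype, so the effect of a deletion and that of its clone cannot be told apart. Rsf1Δ and WstfΔ share their WT libraries.

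Total counts per library ran from 13.4 to 36.7 M (mega) and a median of 25.02 M. The mRNA of the targeted gene was lower in Rsf1Δ (log2 fold change −2.26), WstfΔ (−2.40), BptfΔ (−1.97) and Acf1Δ (−1.72). It was not called in Tip5Δ (−0.26, adjusted p = 0.0533, edgeR quasi-likelihood test) and was higher in the libraries labelled Cecr2Δ (0.37, adjusted p = 1.5e-04). According to the study's methods each clone was checked for loss of the protein by western blot and by sequencing of the alleles, which the mRNA level does not measure. The sum of 8 pluripotency markers, in normalized CPM (read counts scaled to library size and composition), was 4826 to 4869 in Rsf1Δ and 5005 to 5083 in WstfΔ against 3682 to 3812 in their WT, 4771 to 4794 in BptfΔ against 3670 to 3778, 5222 to 5441 in the libraries labelled Cecr2Δ against 4471 to 4869 and 5249.8 to 5255 in Acf1Δ against 4447 to 4581. Only Tip5Δ (4308 to 4505) overlapped with its WT (4303 to 4320), and the other 5 lines lay above theirs. The sum of 6 primitive endoderm markers was 322 to 345 normalized CPM in the WT libraries of batches A and B, 136 to 144 in Rsf1Δ, 131 to 137 in WstfΔ and 71.9 to 78.7 in Tip5Δ. It was 13.5 to 13.8 in BptfΔ against 140.3 to 149 in its WT, 28.7 to 32.8 in the libraries labelled Cecr2Δ against 97.5 to 114 in their WT, and 261 to 298 in Acf1Δ against 235 to 241 in its WT. The sum of 6 trophectoderm markers was made up mostly of Krt8 (15.3 to 183 normalized CPM per library) and Krt18 (10.1 to 196), keratins of simple epithelia in general, while Cdx2, Elf5 and Gata3 were at most 2.28 and Eomes at most 7.44. This sum was lower than in WT of the same batch in all 6 lines. It was 67.5 to 68.6 normalized CPM in Rsf1Δ and 47.0 to 48.9 in WstfΔ against 379 to 385, 169 to 186 in Tip5Δ against 294 to 304, 47.4 to 52.5 in BptfΔ against 130.4 to 133, 31.9 to 32.3 in the libraries labelled Cecr2Δ against 80.1 to 99.9 and 149 to 150.1 in Acf1Δ against 200.1 to 212. The 5 fibroblast markers summed to 2.54 to 32.2 normalized CPM and the 4 mesoderm markers to 3.83 to 9.10, and Postn, Col1a2, Col3a1, Elf5 and Mesp1 reached 0 in at least 1 library. Whether these other cells take part in any change described here was not tested, and in bulk RNA fewer cells of a type and less RNA per cell cannot be told apart.

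Methylated H3K9 marks silent chromatin. In the textbook picture SUV39H1 and SUV39H2 place trimethylation at pericentromeric repeats, where the chromodomain of the HP1 proteins binds it. SETDB1, brought to DNA by TRIM28 and KRAB zinc-finger proteins, places trimethylation at endogenous retroviruses and imprinted loci. In the same picture EHMT2 (G9a) with EHMT1 (GLP) places dimethylation, also at germline genes that mESCs are held to keep off. ADNP forms the ChAHP complex with CHD4 and HP1, which is known to limit CTCF binding at young SINE elements.

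The upstream sequences of 4 members are shown because these genes carried the largest changes: Ehmt2, Trim28 and Suv39h1 were all higher in Acf1Δ, and Cbx1 was lower in WstfΔ and BptfΔ. Each run is 250 bases before the RefSeq start site in GRCm38.p6, read along the gene, with CpG dinucleotides in capitals. It is the reference sequence, not that of the 129S6/SvEvTac cells.
Ehmt2, chr17:34898224-34898473, plus strand: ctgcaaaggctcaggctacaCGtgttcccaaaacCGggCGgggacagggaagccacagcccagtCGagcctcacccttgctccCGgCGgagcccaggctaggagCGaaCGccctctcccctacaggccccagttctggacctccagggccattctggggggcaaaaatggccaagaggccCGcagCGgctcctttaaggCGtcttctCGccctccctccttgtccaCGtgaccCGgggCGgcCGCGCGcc
Trim28, chr7:13023902-13024151, plus strand: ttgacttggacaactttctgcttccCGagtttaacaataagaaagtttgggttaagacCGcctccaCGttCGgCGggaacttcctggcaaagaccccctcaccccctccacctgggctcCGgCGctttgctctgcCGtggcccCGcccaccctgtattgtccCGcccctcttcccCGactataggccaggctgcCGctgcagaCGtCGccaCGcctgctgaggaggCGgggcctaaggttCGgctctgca
Suv39h1, chrX:8074761-8075010, minus strand: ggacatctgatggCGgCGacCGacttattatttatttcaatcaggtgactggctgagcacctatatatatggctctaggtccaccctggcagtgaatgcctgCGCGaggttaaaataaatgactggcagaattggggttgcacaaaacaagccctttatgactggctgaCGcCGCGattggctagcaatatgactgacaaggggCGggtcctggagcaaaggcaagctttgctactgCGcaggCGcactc
Cbx1, chr11:96788885-96789134, plus strand: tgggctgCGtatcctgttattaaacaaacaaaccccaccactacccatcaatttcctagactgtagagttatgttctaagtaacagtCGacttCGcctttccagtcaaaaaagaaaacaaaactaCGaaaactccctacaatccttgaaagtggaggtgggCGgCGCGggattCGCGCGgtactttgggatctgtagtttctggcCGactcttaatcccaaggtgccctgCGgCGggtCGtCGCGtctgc
The 10 members had 11 to 29 CpGs in this stretch, against a median of 6 over 32851 RefSeq promoters. Ehmt2 had 18, Trim28 17, Suv39h1 11 and Cbx1 16. Of 6 motifs sought on both strands over 300 bases (250 before the start and 50 after it), none matched in Ehmt2, Trim28, Cbx1, Ehmt1 or Adnp. The CCAAT box (letters CCAAT) matched 2 times in Suv39h1, both times on the other strand, and once each in Setdb1 and Cbx5, and 37.4% of all promoters hold it. The CTCF core (AGGGGGCG, in 6.07% of all promoters) matched in Setdb1 and Cbx3, the YY1 motif (AAGATGGCG, 1.4%) in Suv39h2 and the E2F motif (TTTCCCGC or TTTGGCGC, 1.56%) in Cbx3. The NRF1 motif (GCGCATGCG, 1.75%) and the ETS motif (CCGGAAGT, 3.89%) matched in 0 of 10 members.

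All 10 members were expressed in WT mESCs, with levels per kilobase of deposited gene width that spanned from Suv39h1 to Trim28. In normalized CPM per kilobase of the gene width in the deposited table, Trim28 was highest at a mean of 646 with an SD of 154 over 11 libraries, and lay above every other member in 11 of 11 libraries. Cbx1 followed at 76.9 ± 7.39, Cbx5 at 62.6 ± 11.9, Ehmt2 at 43.4 ± 8.16, Adnp at 35.6 ± 9.61 and Setdb1 at 29.6 ± 3.93 (SD, n = 11 each). The lowest levels were those of Ehmt1 (14.9 ± 1.27), Cbx3 (14.4 ± 2.49), Suv39h2 (11.9 ± 0.833) and Suv39h1 (9.99 ± 1.28; SD, n = 11 each). Neighbours in this order often overlapped. Ehmt2 exceeded Adnp in 5 of 11 libraries, Ehmt1 exceeded Cbx3 in 7, and Cbx1 exceeded Cbx5 in 9. The order of Cbx1 and Cbx5 rests on the division by gene width (4273 and 9006 bases), and in normalized CPM without it Cbx5 exceeded Cbx1 in 11 of 11. Other parts of the order also rest on this division. Without it Ehmt1 exceeded Cbx3 in 11 of 11, and the mean of Setdb1 (203) lay above that of Adnp (190). The lowest mean was then that of Cbx3 (46.6), below Suv39h2 (52.4) and Suv39h1 (52.7). Per kilobase Setdb1 exceeded Ehmt1 in 11 of 11. The level of Cbx3 is uncertain, since its transcripts match 10 annotated pseudogenes at 90% identity or more over at least 500 bases, while the other members match 0, and how reads with several matches were counted is not given in the sources used here. Its deposited width of 3229 bases is also shorter than its annotated exons of 5992 bases, whereas these lengths are equal for the other members. Its value per kilobase thus depends on the length used. The exons of Suv39h1 overlap an antisense gene over 767 bases and those of Suv39h2 overlap genes on the other strand over 440 bases, so their counts may hold reads of these partners.

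**Figure D1:**
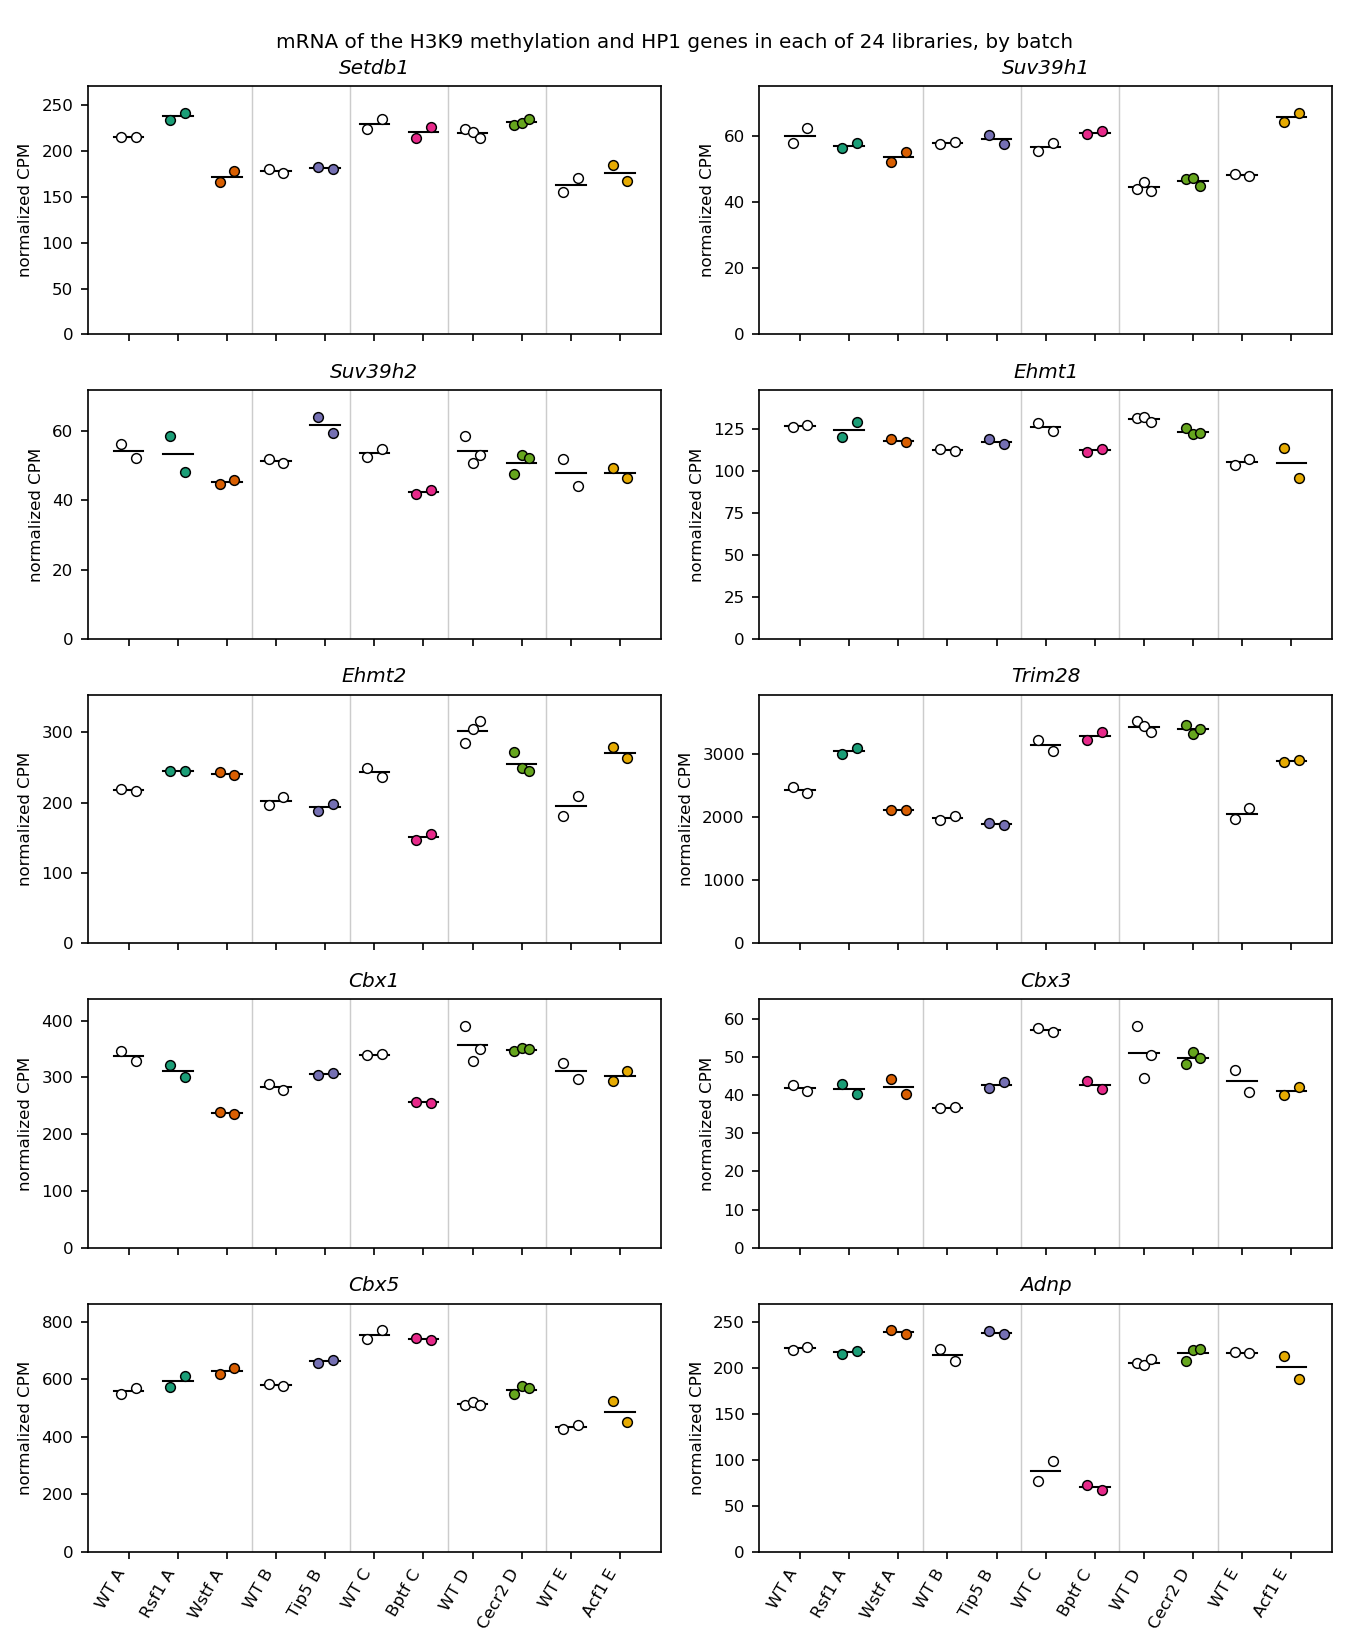
Normalized CPM (linear axis from 0) of each member in each of the 24 libraries, by group and batch; open points are WT, coloured points the lines, bars the group means and grey lines the batch borders. Adnp in batch C lies between 67.9 and 98.9, below all other libraries, and Ehmt2 in BptfΔ lies at 147 and 155, below all 11 WT libraries.

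WT cells differed from batch to batch at 9 of 10 members (F test over batches, adjusted p under 0.01), and 73.1% of all genes tested did so too. Suv39h2 was the member that missed the threshold (adjusted p = 0.236). Trim28 ranged from a mean of 1984 normalized CPM in WT of batch B to 3438 in batch D, a 1.73-fold difference. Cbx5 ranged from 434 in batch E to 755 in batch C, a 1.74-fold difference. Each line was therefore measured against the WT libraries of its own batch.

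Adnp stood apart in batch C. Its WT libraries were at 76.6 and 98.9 normalized CPM and its BptfΔ libraries at 73.0 and 67.9, whereas the other 20 libraries ran from 188 to 241. The 4 libraries of batch C did not overlap with any other library. WT of batch C was lower than the mean of the other WT batches by a log2 difference of −1.29 (SE 0.067, adjusted p = 5.4e-15), and 4.01% of all genes were lower there by more than 2-fold with an adjusted p under 0.01. The 20 tested genes around Adnp had a median of −0.25. In the reference annotation, a predicted gene on the same strand (Gm20716) overlaps 4393 of the 5350 exon bases of Adnp, so reads could be assigned to either. Rpph1, an RNA without a poly(A) tail, was at 3288 to 4824 CPM in batch C and at most 3.39 elsewhere. The part of library preparation and of gene overlap in the low Adnp value was not tested. Without batch C, 8 of 10 members and 60.3% of all genes differed between WT batches, and Adnp was then not among them (adjusted p = 0.614).

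Across the 6 lines the members changed in moderation. Of 60 comparisons with WT, 13 passed an adjusted p of 0.01, 4 higher and 9 lower. Over all genes 26% of gene and line pairs passed it, 12.1% higher and 13.9% lower, and the 13 of 60 lay below that share. The 2-fold change that also defines a DEG was reached in 0 of 60, against 6.75% of all pairs. The largest change was a log2 fold change of −0.69 for Ehmt2 in BptfΔ. In 6 of the 13, the mean of the line lay outside the range of all 11 WT libraries, Adnp in batch C included, as it did in 51.7% of the calls over all genes. With the batch term left out, 8 of the 13 were no longer called, and the share of all pairs called was 8.69%.

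**Figure D2:**
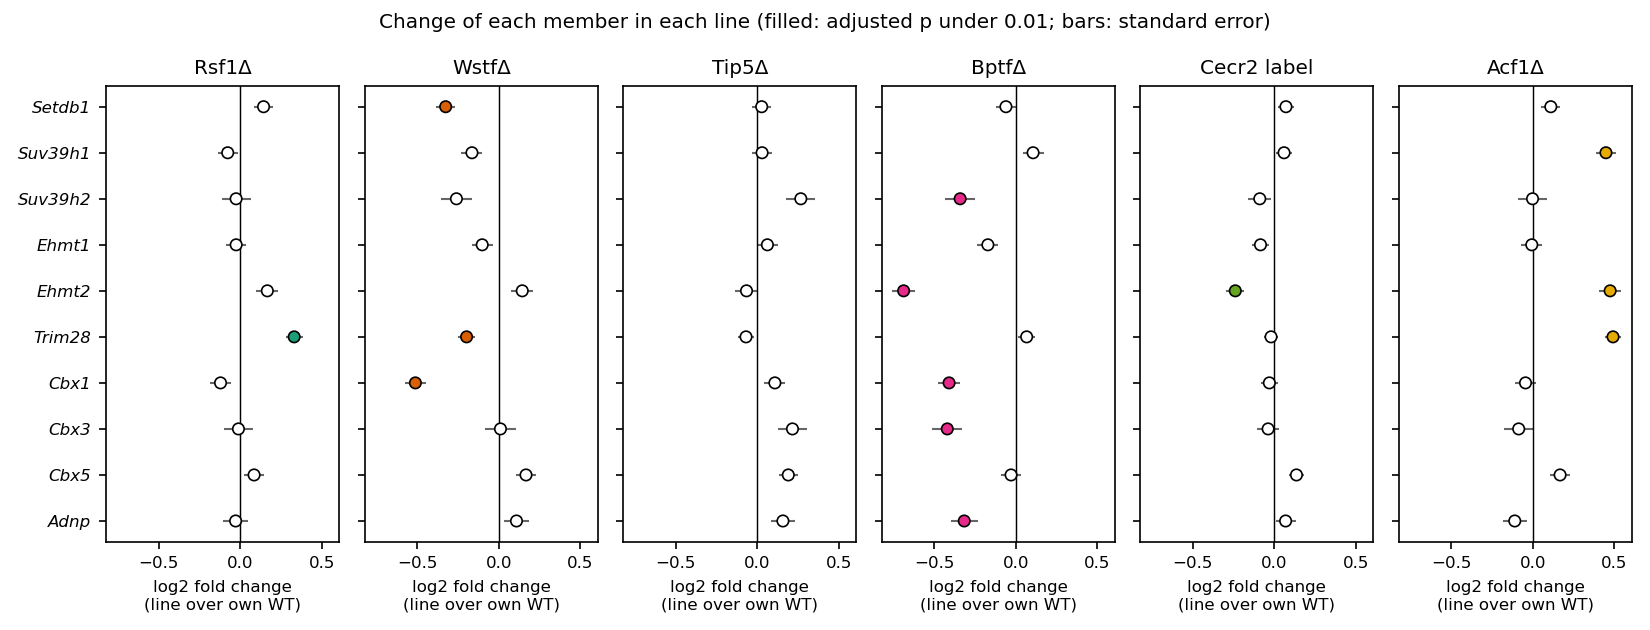
Log2 fold change of each member in each line over the WT libraries of its own batch, with 1 standard error; filled points passed an adjusted p of 0.01. BptfΔ has 5 filled points, all to the left of 0, and Acf1Δ has 3, all to the right.

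BptfΔ cells lack the large subunit of NURF and showed the most changes, with 5 of 10 members lower and 0 higher. Over all genes 20.2% were lower and 21.4% higher in BptfΔ. The members had a median log2 fold change of −0.24, against 0.01 over all genes. Acf1Δ, which lacks the subunit of ACF and CHRAC, had 3 of 10 members higher and 0 lower, against 15.1% and 16.7% of all genes, and a member median of 0.05 against −0.03. WstfΔ, which lacks the WICH subunit, had 3 lower and 0 higher, against 18.3% and 16.4%, and a median of −0.13 against −0.03. Rsf1Δ had 1 higher and 0 lower, against 7.45% and 13.1%, with medians of −0.02 and 0.00. The libraries labelled Cecr2Δ had 1 lower and 0 higher, against 8.83% and 9.52%, with medians of −0.02 and 0.00. Tip5Δ, with a deletion in the gene of the NoRC subunit, had 0 called, against 2.84% higher and 6.23% lower, with medians of 0.09 and −0.01. In Tip5Δ 2 members had an adjusted p under 0.05 in edgeR (15.8% of all genes). DESeq2 called 1 (9.79% of all genes) and the comparison within batch B alone called 4, all higher. Within batch B alone 11.5% of all genes were higher and 24.6% were called in either direction.

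Among the methyltransferases, Ehmt2 varied most. In BptfΔ it was at 147 and 155 normalized CPM, against 249.5 and 237 in WT of batch C. The groups did not overlap, and both BptfΔ values lay below all 11 WT libraries. The log2 fold change was −0.69 (SE 0.069, adjusted p = 4.1e-09), a loss of 37.9%. In Acf1Δ the libraries had 279 and 263 normalized CPM against 181 and 209 in WT of batch E. Both were above their WT but within the range of WT from other batches, and the log2 fold change was 0.47 (SE 0.068, adjusted p = 3.5e-06). The 20 tested genes around Ehmt2 had a median of 0.39 in Acf1Δ, with 16 of the 20 above 0, while the median over chromosome 17 was 0.02. Their median was 0.12 in BptfΔ and −0.09 in the libraries labelled Cecr2Δ. In batch D the libraries labelled Cecr2Δ were at 272, 248 and 245 against 284, 304 and 315 in WT. These too did not overlap, with a log2 fold change of −0.24 (SE 0.055, adjusted p = 0.0015). That call was lost without WT replicate 3, without Cecr2Δ replicate 2 or without Cecr2Δ replicate 3 (adjusted p of 0.0156, 0.0120 and 0.0153). Without the batch term it was 0.099 and not called. Rsf1Δ had 245 in both libraries and WstfΔ 243 and 239, against 219.5 and 217 in their WT (log2 fold changes 0.17 and 0.14, not called). The difference between BptfΔ and Acf1Δ was −1.16 on the log2 scale (SE 0.097, adjusted p = 1.6e-10), more than 2-fold. For Ehmt2, 10 of 15 pairs of lines differed, against 25.2% of all gene and pair combinations. Over the 10 members 42 of 150 combinations differed (28%), and 8 members differed in at least 1 pair, as did 73.4% of all genes.

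Ehmt1, the partner of Ehmt2, was called in 0 of 6 lines and in 0 of 15 pairs of lines. Its log2 fold changes ran from −0.17 (SE 0.064, adjusted p = 0.0279) in BptfΔ to 0.06 (SE 0.063) in Tip5Δ. The log2 ratio of Ehmt2 to Ehmt1 per kilobase was 1.52 ± 0.18 in WT (SD, n = 11 libraries), a 2.87-fold excess of Ehmt2. It was 0.995 ± 0.032 in BptfΔ against 1.51 ± 0.018 in its WT, and 1.94 ± 0.11 in Acf1Δ against 1.45 ± 0.12 in its WT (SD, n = 2 each). Both BptfΔ values were below, and both Acf1Δ values above, all 11 WT libraries. The ratios are given as values and were not tested.

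Suv39h1 and Suv39h2 moved in different lines. Suv39h1 was at 64.3 and 67.1 normalized CPM in Acf1Δ and at 48.4 and 47.9 in WT of batch E. Both Acf1Δ libraries exceeded all 11 WT libraries, and the log2 fold change was 0.45 (SE 0.062, adjusted p = 2.0e-06). This X-linked gene had no other call, and the median over 552 tested genes of the X chromosome was −0.15 in Acf1Δ, while that of the 20 tested genes around it was 0.04. Suv39h2 was at 41.9 and 42.9 in BptfΔ and at 52.6 and 54.8 in WT of batch C, a log2 fold change of −0.34 (SE 0.094, adjusted p = 0.0033). Both values were below all 11 WT libraries. The call did not hold without any 1 of the 4 libraries of batch C (adjusted p of 0.0109 to 0.0315) or with offsets for GC content (adjusted p = 0.0139), and the 15 tested genes around Suv39h2 had a median of −0.29 in BptfΔ. In WstfΔ Suv39h2 was at 44.6 and 45.9 against 56.1 and 52.2, which missed the threshold (log2 fold change −0.26, adjusted p = 0.0249). In Tip5Δ it was at 64.0 and 59.4 against 51.9 and 50.7, which missed it too (log2 fold change 0.27, adjusted p = 0.0379). Both Tip5Δ values were above all 11 WT libraries. The log2 ratio of Suv39h1 to Suv39h2 per kilobase was −0.26 ± 0.21 in WT (SD, n = 11). It was 0.27 ± 0.0064 in BptfΔ against −0.18 ± 0.00054 in its WT and 0.20 ± 0.10 in Acf1Δ against −0.25 ± 0.15 in its WT (SD, n = 2 each).

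Setdb1, whose protein works with TRIM28, was lower in WstfΔ. Its libraries had 166 and 178 normalized CPM, against 216 and 215 in WT of batch A and 234 and 242 in Rsf1Δ of the same batch. The groups did not overlap, and the WstfΔ values stayed within the range of all WT libraries (156 to 235). The log2 fold change was −0.32 (SE 0.060, adjusted p = 6.9e-05), and the 20 tested genes around Setdb1 had a median of −0.21 in WstfΔ. In Rsf1Δ it was 0.14 (SE 0.059, adjusted p = 0.0667). WstfΔ and Rsf1Δ differed by 0.47 (SE 0.060, adjusted p = 4.4e-07).

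Trim28 was called in 3 lines, with different directions. In Acf1Δ it was at 2878 and 2909.6 normalized CPM against 1964 and 2152 in WT of batch E, a log2 fold change of 0.49 (SE 0.051, adjusted p = 3.0e-08). In Rsf1Δ it was at 3004 and 3101 against 2472 and 2382 in WT of batch A, a log2 fold change of 0.33 (SE 0.051, adjusted p = 1.1e-05). WstfΔ, measured against the same WT, was at 2118 and 2117, a log2 fold change of −0.20 (SE 0.051, adjusted p = 0.0026). Each of these groups was clear of its own WT, yet all 3 lay within the range of WT across batches, from 1954 to 3519. The WstfΔ call was lost without WT replicate 1, WstfΔ replicate 1 or WstfΔ replicate 2 (adjusted p of 0.0371, 0.0231 and 0.0234). In BptfΔ, Trim28 was at 3229 and 3356 against 3229 and 3058 (log2 fold change 0.07, adjusted p = 0.284). The 20 tested genes around Trim28 had medians of 0.07 in Acf1Δ, 0.13 in Rsf1Δ and −0.11 in WstfΔ. Of the 15 pairs of lines, 9 differed.

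Ehmt2 and Trim28 are the members richest in G and C, at 60.8% and 59.6% of their transcripts, while the other 8 lie between 41.1% and 51.2%. Genes over 55% GC had a median log2 fold change of 0.10 in Acf1Δ, 0.15 in WstfΔ, 0.18 in BptfΔ and 0.070 in Rsf1Δ. Genes under 45% had medians of −0.15, −0.11, −0.092 and −0.040. The order was the opposite in Tip5Δ (−0.051 over 55% and 0.055 under 45%) and in the libraries labelled Cecr2Δ (−0.044 and 0.040). With offsets for GC content, chosen after the values were seen, Ehmt2 was at −0.95 in BptfΔ, 0.34 in Acf1Δ and −0.21 in the libraries labelled Cecr2Δ, and Trim28 at 0.37 in Acf1Δ, 0.26 in Rsf1Δ and −0.43 in WstfΔ, all called. Trim28 in BptfΔ then was at −0.15 and called (adjusted p = 0.0093). Among the HP1 genes, Cbx5 was at 0.31 in Acf1Δ and 0.27 in WstfΔ, both called.

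Of the HP1 genes, Cbx1 (HP1β) was lower in WstfΔ and BptfΔ. The WstfΔ libraries were at 239.7 and 235 normalized CPM against 347 and 329 in WT of batch A, a log2 fold change of −0.51 (SE 0.065, adjusted p = 3.7e-07). The BptfΔ libraries were both at 256 against 339 and 341 in WT of batch C, a log2 fold change of −0.41 (SE 0.065, adjusted p = 7.3e-06). All 4 values lay below every one of the 11 WT libraries, the lowest of which had 278. Both calls held in all alternatives tried, as did that of Ehmt2 in BptfΔ. The 20 tested genes around Cbx1 had medians of 0.03 in WstfΔ and 0.19 in BptfΔ. In the other 4 lines the log2 fold change of Cbx1 was between −0.12 and 0.11 and was not called.

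Cbx3 (HP1γ) was at 43.6 and 41.7 normalized CPM in BptfΔ against 57.5 and 56.6 in WT of batch C. The groups did not overlap (log2 fold change −0.42, SE 0.092, adjusted p = 3.9e-04), but the BptfΔ values were within the range of WT in other batches, from 36.6 to 58.2. The 20 tested genes around Cbx3 had a median of −0.04 in BptfΔ. Cbx5 (HP1α) was called in 0 of 6 lines. Its log2 fold changes were 0.17 in WstfΔ, 0.19 in Tip5Δ, 0.17 in Acf1Δ and 0.14 in the libraries labelled Cecr2Δ, with adjusted p-values of 0.0225, 0.0268, 0.0241 and 0.0346. The Acf1Δ libraries were at 525 and 450 normalized CPM against 427 and 442 in WT of batch E. With each of these libraries left out in turn, the log2 fold change of Cbx5 in Acf1Δ ran from 0.053 to 0.28.

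The shares of the HP1 genes moved with these values. In WT, Cbx1 made up 50.2 ± 4.201%, Cbx5 40.5 ± 4.72% and Cbx3 9.34 ± 1.002% of their summed CPM per kilobase (SD, n = 11). The share of Cbx3 carries the limits on its counts (pseudogenes) and on its width that were given above. In WstfΔ the share of Cbx1 was 40.1 ± 0.606% against 51.3 ± 1.42% in its WT, and that of Cbx5 was 50.4 ± 1.22% against 40.3 ± 1.55%. In BptfΔ Cbx1 was at 38.6 ± 0.222% against 43.9 ± 0.424%, and Cbx5 at 52.9 ± 0.0080% against 46.3 ± 0.667% (SD, n = 2 each). Per kilobase, Cbx5 stood above Cbx1 in all 4 libraries of these lines, whereas without division by gene width it did so in all 24 libraries. Per kilobase it also did so, by log2 ratios of 0.039 and 0.043, in both Tip5Δ libraries, where neither gene was called. Among the WT batches it did so in batch C.

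**Figure D3:**
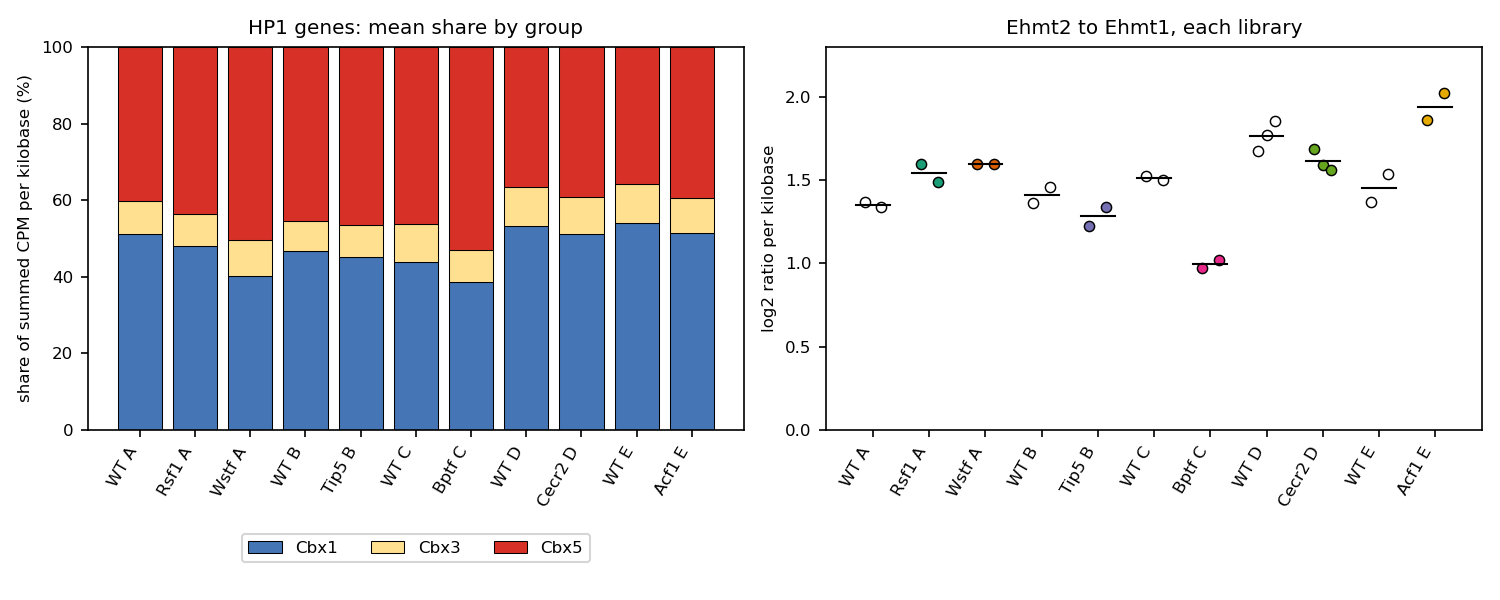
Left, mean share of Cbx1, Cbx3 and Cbx5 in their summed CPM per kilobase in each group (bars stack to 100%); right, log2 ratio of Ehmt2 to Ehmt1 per kilobase in each library, with bars at group means. The share of Cbx1 is lowest in BptfΔ (38.6%) and WstfΔ (40.1%), and the log2 ratio runs from 0.995 in BptfΔ to 1.94 in Acf1Δ.

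Adnp was lower in BptfΔ, at 73.0 and 67.9 normalized CPM against 76.6 and 98.9 in WT of batch C (log2 fold change −0.32, SE 0.082, adjusted p = 0.0020). This is the batch in which Adnp was low in all libraries. The call was lost without WT replicate 2 (log2 fold change −0.12, adjusted p = 0.233) or without BptfΔ replicate 2 (−0.26, adjusted p = 0.0407), and without either of these 2 libraries 3 members in place of 5 were called in BptfΔ, with 32.8% and 31.1% of all genes called. In the other lines the log2 fold change of Adnp was between −0.11 and 0.16 and not called.

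Other genes of the pathway gave a mixed picture. The 42 listed genes are partners of the methyltransferases, the HUSH and MORC silencing factors, partners of HP1 and ADNP, and H3K9 demethylases. Of these, 41 were tested and 0 were DEGs in any line, against 6.75% of all gene and line pairs. In BptfΔ 9 were higher and 13 lower, against 21.4% and 20.2% of all genes. WstfΔ had 10 higher and 11 lower (16.4% and 18.3% of all genes), Acf1Δ 4 and 9 (15.1% and 16.7%), Tip5Δ 4 and 0 (2.84% and 6.23%) and Rsf1Δ 2 and 3 (7.45% and 13.1%). The libraries labelled Cecr2Δ had 8 higher and 1 lower (9.52% and 8.83%). Kdm7a, a demethylase gene, was higher in WstfΔ (46.2 ± 0.511 against 28.6 ± 4.62 normalized CPM, log2 fold change 0.69, adjusted p = 1.1e-04; SD, n = 2 each) and in the libraries labelled Cecr2Δ (37.9 ± 4.06 against 23.3 ± 0.709, log2 fold change 0.70, adjusted p = 7.1e-06; SD, n = 3 each). Phf2, another demethylase gene, was lower in Rsf1Δ (8.67 ± 0.116 against 15.99 ± 0.045, log2 fold change −0.88) and higher in BptfΔ (14.96 ± 0.498 against 8.34 ± 0.157, log2 fold change 0.84; SD, n = 2 each), and was also lower in Acf1Δ (log2 fold change −0.43). The demethylase gene Kdm3a was called in 5 lines, lower in BptfΔ (log2 fold change −0.61), Rsf1Δ (−0.44) and WstfΔ (−0.20) and higher in Acf1Δ (0.34) and in the libraries labelled Cecr2Δ (0.38). Kdm4a, also a demethylase gene, was higher in Tip5Δ (0.34) and BptfΔ (0.22). Atrx, whose protein places histone H3.3 at heterochromatin, was higher in Tip5Δ (573 ± 1.51 against 398 ± 5.70, log2 fold change 0.53, adjusted p = 2.4e-04; SD, n = 2 each) and lower in BptfΔ (log2 fold change −0.58, adjusted p = 1.4e-05), WstfΔ (−0.46, adjusted p = 3.1e-04) and Acf1Δ (−0.42, adjusted p = 0.0010). Senp7, a SUMO protease gene, was higher in BptfΔ (log2 fold change 0.81) and lower in Acf1Δ (−0.68), and Cdyl2, a chromodomain gene, was higher in Rsf1Δ (0.55), Acf1Δ (0.49) and WstfΔ (0.47).

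Germline genes that EHMT2 and EHMT1 help to keep silent showed larger changes than the members. Of 15 listed, 14 were tested and Magea2 had 0 counts in all libraries. In BptfΔ, where Ehmt2 was lower, 8 were lower and 0 higher, against 20.2% and 21.4% of all genes. DEGs there were 6 of the 14 tested, against 13.8% of all genes. Of the 14 genes 4 were DEGs in WstfΔ, 2 in Tip5Δ, 1 in Rsf1Δ, 0 in Acf1Δ and 1 in the libraries labelled Cecr2Δ, against 10.4%, 2.72%, 5.91%, 4.45% and 3.11% of all genes. Of the 8 genes lower in BptfΔ, Asz1 and Tex101 had at most 2 counts in each BptfΔ library and are counted without a fold change. In Acf1Δ, where Ehmt2 was higher, 4 were lower and 1 higher (16.7% and 15.1% of all genes). The libraries labelled Cecr2Δ, where Ehmt2 was lower, also had 4 lower and 1 higher (8.83% and 9.52%). Ehmt2 was not called in the other 3 lines, of which Tip5Δ had 5 lower and 1 higher (6.23% and 2.84%), Rsf1Δ 0 lower and 6 higher (13.1% and 7.45%) and WstfΔ 6 lower and 2 higher (18.3% and 16.4%). Whether Ehmt2 has a part in these changes was not tested.

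Dazl, a germ-cell RNA-binding protein gene, was at 48.5 and 38.8 normalized CPM in Rsf1Δ and 23.1 and 18.8 in WstfΔ, against 15.2 and 13.5 in their WT. It was at 5.87 and 6.12 in BptfΔ against 19.7 and 18.4. The log2 fold change was 1.60 in Rsf1Δ (SE 0.10, adjusted p = 1.8e-12) and −1.67 in BptfΔ (SE 0.13, adjusted p = 4.8e-11). Dazl was also called in WstfΔ (0.55), Tip5Δ (−0.42) and Acf1Δ (−0.65). Cyct, the testis cytochrome c gene, was at 0.718 and 0.404 in BptfΔ against 16.3 and 16.8 (log2 fold change −4.88, adjusted p = 3.9e-15) and at 4.90 and 5.53 in Tip5Δ against 16.1 and 16.8 (−1.65, adjusted p = 2.1e-09). The BptfΔ libraries held 12 and 7 counts of Cyct. It was also lower in Acf1Δ (log2 fold change −0.63) and higher in Rsf1Δ (0.46). Slc25a31, the germ-cell ATP carrier gene, was called in all 6 lines, higher in Rsf1Δ (log2 fold change 0.96) and Acf1Δ (0.50) and lower in BptfΔ (−1.34), WstfΔ (−1.06), Tip5Δ (−0.85) and the libraries labelled Cecr2Δ (−0.48). Tuba3a was higher in WstfΔ (log2 fold change 1.4) and lower in Tip5Δ (−1.17) and Acf1Δ (−0.73). Taf7l was lower in WstfΔ (−1.35), BptfΔ (−0.90) and the libraries labelled Cecr2Δ (−0.62) and higher in Rsf1Δ (0.54). Hormad1 was higher in the libraries labelled Cecr2Δ (0.58) and lower in BptfΔ (−1.51), Tip5Δ (−0.86) and Acf1Δ (−0.83). Tex101 in WstfΔ (1 and 4 counts against 34 and 23 in WT, log2 fold change −2.66, adjusted p = 2.3e-04) and Wfdc15a in the libraries labelled Cecr2Δ (log2 fold change −1.25, adjusted p = 0.0045) were also lower, at levels of at most 1.36 normalized CPM in the libraries compared for Tex101.

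**Figure D4:**
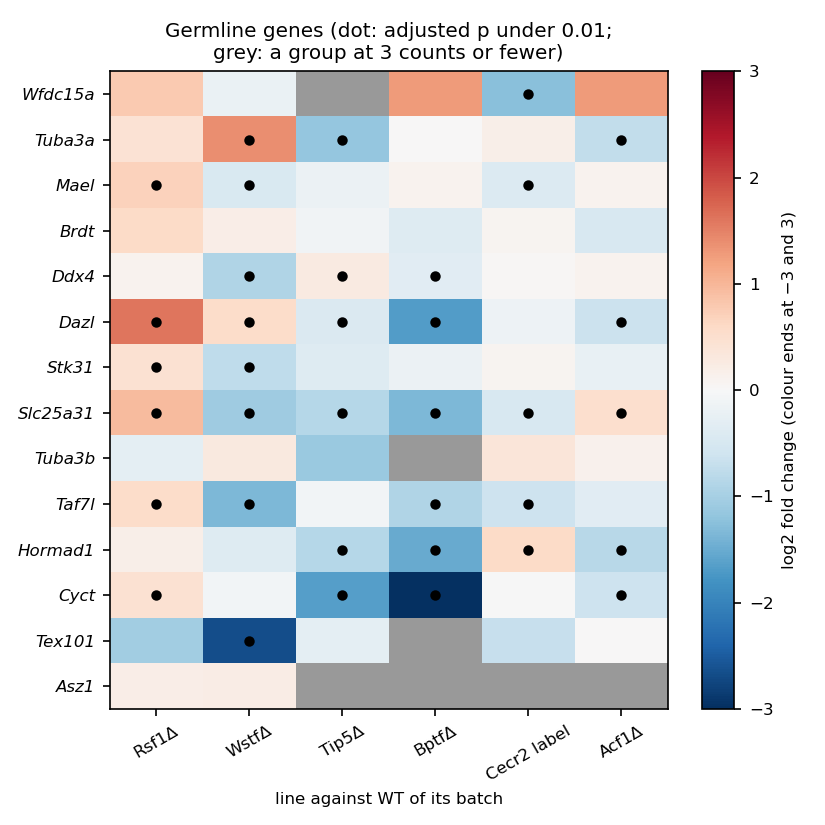
Log2 fold change of the 14 tested germline genes in each line over the WT libraries of its batch (colour, ending at −3 and 3); dots mark an adjusted p under 0.01 and grey cells, 7 of 84, a group with at most 3 counts in every library. BptfΔ has lower genes only among its dots and Rsf1Δ higher genes only.

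The genes whose pattern was most like that of a member were sought for the 3 members with the widest range of changes, by Pearson correlation of log2 normalized CPM, taken relative to the WT mean of the batch, over 24 libraries and among 9841 genes. For Ehmt2 these were Ydjc (r = 0.958), Urah (0.953) and Nle1 (0.948). For Trim28 they were Ddx39b (0.958), U2af2 (0.957) and Trmt2a (0.953), the first 2 of them splicing genes. For Cbx3 they were Nasp (0.946), a histone chaperone gene, Ddx10 (0.930) and Plaa (0.929). The libraries share batches, depth and base composition, so these values are descriptions.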

How the data were processed

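RNA was sequenced in 24 mESC libraries (11 WT, 6 deletion lines). Reads were mapped by the authors to mm10 with the spliced mode of QuasR 1.40.1 (Rhisat2), and the authors deposited raw read counts per gene of the UCSC knownGene annotation 3.10.0, together with a gene width in bases, which was used here for values per kilobase. The submitters' processing notes name bcl2fastq 2.17 and HISAT2. Strand and multi-read counting options are not given in the sources used here. The labels name a stranded mRNA kit and poly(A) RNA, while the methods name the TruSeq RNA kit v2. Total counts were 13.4 to 36.7 M, which sets the counting error.

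Of 24594 gene IDs, 24570 had a symbol in RefSeq (GRCm38.p6), which also gave coordinates and promoters. In R 4.3.3, edgeR 4.0.16 filtered genes (filterByExpr by genotype, 15682 kept), scaled with TMM factors and fitted the legacy quasi-likelihood model with batch and genotype as terms on all libraries. Benjamini-Hochberg adjustment ran over 15682 genes. A gene was called at an adjusted p under 0.01, and was a DEG with an absolute log2 fold change over 1 too. SE came from the log2 fold change and its F statistic. Pairs of lines were compared as contrasts of the same fit. Replicates are independent according to the methods, within 1 clone per line. Between replicate libraries the chi-square per gene was 1.38 to 20.4, so each was counted as its own sample. Steps were tested on simulated data. Pseudogene matches came from blastn on GENCODE vM21 transcripts.

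The members and gene lists were chosen with earlier results of these data known. Named besides the members and targeted genes are, per line, at most 2 listed pathway genes with the largest increase and 2 with the largest decrease among those called with a mean of at least 10 counts, and 3 genes most like each of 3 members. Gm20716, Rpph1, Magea2 and marker genes were named for single checks. Alternatives were DESeq2 1.42.0, edgeR's newer fit, other scaling, other filters, an adjusted p of 0.05, own WT only, no batch term, a replicate block and each replicate left out. Offsets for GC content and the fit without batch C were added after seeing the data.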

Additional observations from a re-analysis of the deposited data

Results flagged for a closer look

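For 8 of the 10 members the change against WT differed between lines, by a contrast of 2 genotype terms with an adjusted p under 0.01 (edgeR quasi-likelihood test). Of 15 pairs of lines, Ehmt2 differed in 10, Trim28 in 9, Cbx1 in 7, Suv39h1 in 5, Setdb1 in 4, Adnp in 3, Suv39h2 in 2 and Cbx3 in 2. Over the 10 members 28% of gene and pair combinations differed (42 of 150), against 25.2% over all genes, and 73.4% of all genes differed in at least 1 pair. Lines other than Rsf1Δ and WstfΔ lie in different batches, each against its own WT. The widest gap was that of Ehmt2 between BptfΔ and Acf1Δ, at −1.16 on the log2 scale (SE 0.097, adjusted p = 1.6e-10). Cbx1 separated WstfΔ from Tip5Δ by −0.62 (SE 0.092, adjusted p = 6.7e-06) and Trim28 separated WstfΔ from Acf1Δ by −0.69 (SE 0.073, adjusted p = 1.9e-08). Suv39h1 in Acf1Δ differed from each of the other 5 lines, with log2 differences from 0.34 to 0.61 in size. Ehmt1 and Cbx5 differed in 0 of 15 pairs.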

How the results depend on the processing

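Of the 13 called changes, 3 kept direction and call under every alternative: Cbx1 in WstfΔ and BptfΔ and Ehmt2 in BptfΔ. Of 47 changes not called, 12 were called under at least 1 alternative. Without the batch term the number of members called became 0 in Acf1Δ, 0 in the libraries labelled Cecr2Δ, 0 in Rsf1Δ and 1 in WstfΔ (2.22%, 7.6%, 1.61% and 7.65% of all genes called), and Ehmt2 in the libraries labelled Cecr2Δ turned to 0.099. In BptfΔ only the call of Cbx3 was lost in that fit, where 31.3% of all genes were called. At an adjusted p of 0.05 the number was 2 in the libraries labelled Cecr2Δ, 2 in Tip5Δ and 6 in WstfΔ (28.7%, 15.8% and 46.1%). With a line and its own WT only it was 4 in Tip5Δ and 6 in WstfΔ (24.6% and 45.6%). In Tip5Δ it was 1 with DESeq2 (9.79%) and 2 with no filter on low counts (8.73%). With each replicate left out in turn it ran from 0 to 1 in the libraries labelled Cecr2Δ (13.7% to 18.4% of all genes called). In the other lines such a fit leaves 1 library in a group, so its counts are not given here. With offsets for GC content Trim28 in BptfΔ turned to −0.15. Without division by gene width the WT shares were 35.3% for Cbx1, 4.97% for Cbx3 and 59.7% for Cbx5. The log2 ratios were then 0.96 for Ehmt2 to Ehmt1 and −0.0013 for Suv39h1 to Suv39h2, against 1.52 and −0.26 per kilobase. The order of the HP1 genes and that of Suv39h1 and Suv39h2 thus rest on gene width, and the excess of Ehmt2 was smaller without it. The cause of the other moves was not tested. Same-numbered libraries did not deviate together (correlations of −0.067 to 0.045 over 13 pairs). In groups of 2 libraries both pairs give the same value by construction. With the replicate number as a block 5 members were called in BptfΔ (38.3% of all genes), 3 in WstfΔ (31.5%) and 3 in Acf1Δ (27.8%). The number was 1 in Rsf1Δ (17.6%), 1 in the libraries labelled Cecr2Δ (15.1%) and 0 in Tip5Δ (7.06%). Between WT batches it was 9, and the share of all genes was not counted for that fit. Depth was no limit for detection, since every member had at least 551 counts in each library. With 2 or 3 libraries of 1 clone per line, p-values cover the spread between libraries of that clone.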
